A study of Mus musculus with 10 samples.

Results

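Splicing factor genes were examined in the prefrontal cortex of arthritic and control mice. They are the 50 probes whose single gene symbol on the array's platform begins with Snrp, Sf3a, Sf3b, Srsf, Hnrnp, Prpf, Lsm, U2af or Ptbp, among 9066 probes with 1 symbol that stand for 8726 genes. Each of the 50 genes has 1 probe. The names divide them into 32 core spliceosome genes (Snrp, Lsm, Sf3a, Sf3b, Prpf and U2af) and 18 regulatory genes (Srsf, Hnrnp and Ptbp). No probe carried the symbol Snrpn, Snrpb, Prpf19, U2af2, Srsf2, Srsf3, Hnrnpk, Rbfox1, Rbfox2 or Rbfox3.

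The study compared arthritic with control mice of DBA/1, an inbred strain commonly used for collagen-induced arthritis. All mice were males injected intradermally at 8 weeks of age. The collagen group received type II collagen, 100 µl, mixed with 100 µl of Complete Freund's adjuvant, controls were given 200 µl of that adjuvant alone, and both groups received LPS, a bacterial endotoxin, at day 24. The collagen mice thus had the smaller volume of adjuvant, and collagen and adjuvant dose cannot be told apart. Each of 10 arrays carried prefrontal cortex RNA of both groups in separate dyes, in 5 dye-swap pairs, with collagen RNA on Cy5 on one array of a pair and on Cy3 on its partner. In the titles the 5 pairs carry the numbers 1, 2, 3, 1 and 2. Pairs 1 and 4 were therefore averaged as replicate 1, pairs 2 and 5 as replicate 2, and pair 3 stood alone as replicate 3. The labels do not say how many mice stand behind a number. A p-value thus reflects no more than the spread among these values, partly pooled over all tested probes, and that spread may be technical.

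The spliceosome removes introns from pre-mRNA. Small nuclear RNAs, each wrapped in a ring of Sm or Lsm proteins and joined by particle-specific proteins, recognise the splice sites and the branch point. Of the Prpf proteins, Prpf8 lies at the catalytic centre, and Prpf3 and Prpf31 are U4/U6 proteins. SR proteins (Srsf) mostly favour the use of nearby exons, whereas hnRNPs and the Ptbp proteins often oppose it. Alternative splicing is especially rich in brain, where neurons replace Ptbp1 by Ptbp2 as they differentiate. A few genes take their place in the core group by name only. Lsm1 acts in mRNA decay, Lsm11 belongs to the U7 particle that processes histone mRNA, and Lsm14a is a protein of cytoplasmic mRNA granules. These genes were not tested, but Lsm12, which is not of the ring on U6 snRNA, was tested with the core group.

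Ratios are given as log2 of collagen over control. Nothing in the files says which dye is channel A or B. The labels list Cy3 before Cy5 and this order was used, so each direction is likely rather than settled, and the opposite assignment would reverse every sign and keep every size. A probe counted as measured on an array when both channels held an intensity above 0 and an accepted spot flag. The test took 4125 of 9078 listed probes, those with a value in every replicate, and 45.2% to 85.9% of listed probes were measured on an array. Raw intensities differed between sets of arrays. Over spots, Spearman's correlation of channel A was 0.731 to 0.793 between arrays within pairs 1 and 2 and 0.555 to 0.803 within pairs 4 and 5. It was 0.161 to 0.442 between arrays of pairs 1 and 2 and those of pairs 3 to 5. For array pairs within pairs 3 to 5 that include pair 3 it was 0.320 to 0.616 (median 0.382). That set includes both arrays of pair 3 with each other, and its range overlaps the one within pairs 4 and 5 (median 0.671). These are descriptions over probes. All 11 cortical neuron markers with a probe were measured in all 3 replicates, as were 2 of 2 oligodendrocyte, 1 of 2 astrocyte and 4 of 6 microglia and macrophage markers. No probe stood for the endothelial or erythroid markers. In whole tissue, fewer cells of a type and less RNA per cell cannot be told apart.

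Detection differed between the classes. Between 24 and 49 of the 50 member probes were measured on an array, and 19 of 50 (38.0%) were measured on all 10 arrays, against 20.3% of listed probes. For core genes the count was 8 of 32 (25.0%), and for regulatory genes it was 11 of 18 (61.1%). The 8 core genes were Snrpb2, Snrpc, Sf3a2, Prpf8, Prpf31, Lsm6, Lsm7 and Lsm12. The 11 regulatory genes were Srsf4, Srsf5, Hnrnpa1, Hnrnpc, Hnrnpd, Hnrnpdl, Hnrnph2, Hnrnpl, Hnrnpr, Hnrnpu and Ptbp2. Regulatory probes were thus read on every array more often than core probes, which is a description with no test, since levels of different probes cannot be set against each other.

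A set of 8 members was measured on none of the 4 arrays of pairs 1 and 2 and on all 6 arrays of pairs 3 to 5: Snrpf, Snrpg, U2af1, Prpf3, Prpf38b, Srsf1, Srsf9 and Hnrnpll. That is 16% of members, against 9.84% of listed probes. Srsf1, the founding SR protein, shows the pattern in its deposited intensities, in scanner units at the middle of 3 readings. In pair 1 it was listed at 0 in both channels of both arrays. In pair 2, collagen had 0 and control 12217 with collagen on Cy5, and collagen had 64619 and control 0 with collagen on Cy3. In pair 5, collagen had 6366735 and control 4924884 with collagen on Cy5, and collagen had 2137143 and control 3083044 with collagen on Cy3. The probe therefore was listed at 0 in 1 pair and was bright in another. Both channels of an array lay close in pair 5, but not on every array. In pair 4, collagen had 435446 and control 1755518 with collagen on Cy5, and 4138418 and 5565591 with collagen on Cy3. These intensities are not normalised. An intensity of 0 can be a failed reading, so the ratios of these 8 genes rest on pairs 3 to 5 alone.

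**Figure D1:**
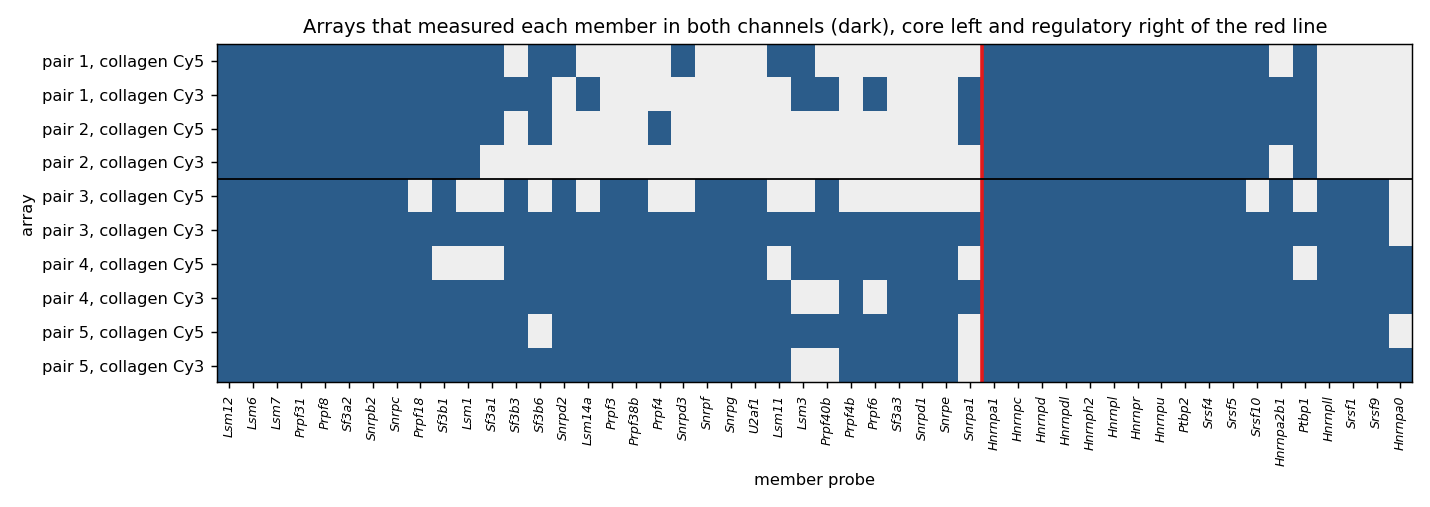
Each column is one of the 50 members, core genes left and regulatory genes right of the red line, and each row is an array, named by its pair and by the dye that carried collagen. Dark cells are arrays that measured the gene in both channels: pale cells are most frequent above the black line, in pairs 1 and 2, and on the array of pair 3 with collagen on Cy5 (32 of 50 members measured), and core genes hold more of them than regulatory genes, of which 11 of 18 are dark on all 10 arrays.

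The test reached 31 members, 16 core and 15 regulatory, or 62.0% of the 50, against 45.4% of listed probes. None passed an adjusted p of 0.05 in limma's moderated test in either direction, and neither did any of the 4125 probes (0% higher and 0% lower). The lowest adjusted p of a member was 0.642. At an unadjusted p under 0.05 there were 3 members, Hnrnpr and Snrpf above 0 and Srsf9 below, or 9.68% of those fitted, beside a background of 6.5% (2.38% higher and 4.12% lower). That share is near the background. Print-tip loess, which fits the dye trend within each printed grid, also gave 3 members, but they were Hnrnpll, Snrpd2 and Hnrnpa2b1. With pairs 3 to 5 alone there were 4, the first 3 and Hnrnpc. A common sign across replicates was seen for 11 of the 31 (35.5%), 6 above 0 and 5 below, beside 35.2% of all probes (14.2% higher and 21% lower). A size over 0.25 was found for 4 members, Snrpf, Hnrnpr, Hnrnpa2b1 and Srsf9, or 12.9%, beside 12% of all probes. Members ranged from -0.28 to 0.34 around a median of -0.02, and all probes had a median of -0.02 as well.

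The 3 members at unadjusted p under 0.05, the ones the count above turns on, are shown by the 150 bases before their annotated start, from RefSeq promoters on GRCm38.p6. Of the 50 members, 45 had an entry. Capitals mark matches to CCAAT (the CCAAT box, ATTGG on the other strand), CCGGAAG (an ETS core) and TGCGCA (the core of the NRF1 site, the same on both strands).
Hnrnpr, chr4:136310792-136310941, plus strand: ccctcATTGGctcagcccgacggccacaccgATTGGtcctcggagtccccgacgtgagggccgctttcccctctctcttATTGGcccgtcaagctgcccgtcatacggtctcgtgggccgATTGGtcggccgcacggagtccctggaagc
Snrpf, chr10:93589659-93589808, minus strand: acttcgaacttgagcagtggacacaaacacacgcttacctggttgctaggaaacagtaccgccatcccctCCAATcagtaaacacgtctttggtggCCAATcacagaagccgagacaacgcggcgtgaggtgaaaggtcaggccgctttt
Srsf9, chr5:115327027-115327176, plus strand: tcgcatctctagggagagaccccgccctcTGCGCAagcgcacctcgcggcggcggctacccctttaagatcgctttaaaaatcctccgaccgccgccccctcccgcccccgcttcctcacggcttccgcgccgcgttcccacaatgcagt
Hnrnpr holds 4 CCAAT matches, all as ATTGG, Snrpf holds 2 and Srsf9 holds 1 TGCGCA match.

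Over the full 250 bases upstream, CCAAT was found on either strand in 18 of 45 member promoters (40.0%), 9 of 28 core and 9 of 17 regulatory, and in 34.5% of 27025 promoters of the same length. CCGGAAG was found in 26.7% of member promoters, 32.1% of core and 17.6% of regulatory, against 7.05% of all. TGCGCA was found in 28.9% of member promoters, 35.7% of core and 17.6% of regulatory, against 6.66% of all. TATAAA was found in 2.22% of member promoters, against 13.0% of all. Member promoters also had more G and C, at a median of 60.4% against 52.0%, and more CG dinucleotides, at a median of 19 against 6. The part of base composition in these shares was not tested. A match is a string of letters and not a binding site.

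Among the 16 fitted core genes, Snrpf and Snrpd2 of the Sm ring had the highest ratios. Snrpf (SmF, one of the ring proteins) read 0.44 in pair 3, 0.21 in pair 4 and 0.24 in pair 5, and was not measured as a pair in pairs 1 and 2. Its mean was 0.30 (SE 0.10, n = 3, limma adjusted p = 0.642). By array it read 0.64, 0.77 and 0.31 with collagen on Cy5, and 0.25, -0.35 and 0.16 with collagen on Cy3, so the groups were not separated in the same direction on all 6 arrays. The array at 0.77, of pair 4, kept 2 of 3 readings, and its collagen channel was listed at 0 at the middle reading. Under print-tip loess the mean of Snrpf was -0.02, and the direction did not hold.

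Snrpd2 (SmD2) read 0.40 in pair 3, 0.30 in pair 4 and 0.03 in pair 5, with a mean of 0.24 (SE 0.11, n = 3, limma adjusted p = 0.642) and 0.29 under print-tip loess. By array it read 0.49, 0.81 and 0.39 with collagen on Cy5, and 0.31, -0.22 and -0.33 with collagen on Cy3. A single array of pair 1 read -1.24, from 1 of 3 readings, and its collagen channel was listed at 0 at the middle reading. In a fit to single arrays, blocked by replicate number and including that array, the ratio of Snrpd2 was 0.01. Snrpg (SmG) read -0.05, -0.06 and 0.25 in pairs 3 to 5, with no common sign. The other ring genes were measured in 2 replicates and were not tested. Snrpd1 read 0.23 and 0.23 in replicates 1 and 2, Snrpd3 read 0.06 and 0.24, and Snrpe read 0.02 and 0.01. Thus 13 of 15 replicate values of the 6 ring genes on the array lay above 0, with gene means from 0.01 to 0.30 and a median of 0.19. Of the means, 6 of 6 lay above 0, beside 3767 of 7790 listed probes with a value (median -0.01). The 15 values come from the same arrays and are not independent. Under print-tip loess 10 of 15 values lay above 0. So did 4 of the 6 means, which ran from -0.22 to 0.29, beside 3753 of 7789 listed probes. The ring was singled out after its values were seen and was not tested as a list.

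Of the proteins specific to one particle, Snrpb2 (U2-B'', which binds U2 snRNA) read -0.02, 0.01, 0.45, 0.09 and 0.04 in pairs 1 to 5. Its mean of 0.17 (SE 0.12, n = 3) thus rests on pair 3, and it was 0.03 without replicate 3. Snrpc (U1-C, a protein of the U1 particle) read -0.02, 0.10 and -0.19 in replicates 1 to 3. Snrpa1, a second U2 protein, was measured on 4 arrays and in no complete pair. Among the U2 proteins of SF3A and SF3B, Sf3b1, a subunit that holds the branch point, read -0.07, 0.07 and -0.18 in replicates 1 to 3, with a mean of -0.06 (SE 0.10). Sf3b3 and Sf3a2, further subunits of the U2 particle, had means of -0.04 and -0.09, with replicates from -0.36 to 0.20 and from -0.35 to 0.06. Sf3b6 and Sf3a1, measured in fewer replicates and not tested, had means of 0.27 and 0.13. U2af1, which reads the AG at the end of an intron, read -0.23, -0.24 and -0.01 in pairs 3 to 5, with a mean of -0.16 (SE 0.10), and 0.05 under print-tip loess.

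The fitted Prpf and Lsm genes did not share a direction. Prpf8, the large protein at the catalytic centre, read 0.06, 0.10, -0.20, -0.15 and 0.27 in pairs 1 to 5, with a mean of -0.02 (SE 0.11, n = 3). Prpf3, a U4/U6 protein, read -0.28, -0.15 and -0.11 in pairs 3 to 5, with a mean of -0.18 (SE 0.09), and 0.03 under print-tip loess. Prpf38b had a mean of -0.12, with -0.34, -0.04 and 0.01 in replicates 1 to 3. Lsm6 and Lsm7, proteins of the ring on U6 snRNA, had means of 0.13 (SE 0.10) and 0.08 (SE 0.09), and Lsm12, which is not of that ring, had -0.02. For Lsm6 the replicates read 0.04, 0.04 and 0.30.

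Prpf31, a U4/U6 protein mutated in a human retinal degeneration, stood apart by its dye effect rather than its ratio. With collagen on Cy5 it read -0.50, -2.15, -1.53, -0.64 and -1.29 in pairs 1 to 5, and with collagen on Cy3 it read 2.34, 1.91, 0.86, 0.88 and 1.04. Every array thus gave the Cy3 sample the higher signal, whichever group it came from. The dye effect, log2 of Cy5 over Cy3, was -1.29 (SE 0.14, n = 3, limma adjusted p = 0.00363), and Prpf31 was the only member among 74 probes called (1.79% of 4125). With median centring it was -1.05 (limma adjusted p = 0.0542) and was no longer called, with 21 probes called in all. Of the 74, 2 were higher in Cy5 (0.0485% of 4125). Averaged over the pairs' orientations, collagen over control read 0.52, -0.12 and -0.33 in replicates 1 to 3, with a mean of 0.02 (SE 0.17). Pair 1 alone read 0.92, and with pairs 3 to 5 alone the mean was -0.11. At an unadjusted p under 0.05, 4 of 31 members had a dye effect, beside 20.4% of all probes. The median size of the dye effect was 0.17 for members and 0.16 for all probes, larger than the median size of the collagen ratio, 0.09 for members and 0.11 for all probes.

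**Figure D2:**
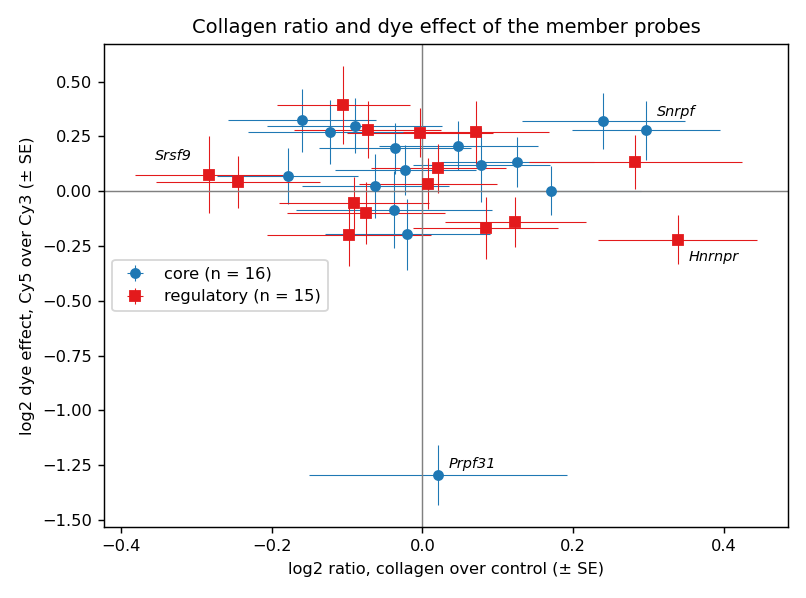
Collagen ratio (log2 collagen over control, x axis) against dye effect (log2 Cy5 over Cy3, y axis) of the 31 fitted members, as means of 3 replicates with limma's SE, core genes as circles and regulatory genes as squares. Prpf31 lies apart at a dye effect of -1.29 with a collagen ratio of 0.02.

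Among the regulatory genes, Hnrnpr, an hnRNP with roles in neuronal mRNA transport, had the largest ratio. It read -0.02, 0.21, 0.46, 0.29 and 0.62 in pairs 1 to 5, above 0 in 4 of 5 pairs. Its mean was 0.34 (SE 0.11, n = 3, limma adjusted p = 0.642), with 0.18 under print-tip loess and 0.46 in pairs 3 to 5 alone. With collagen on Cy5 it read -0.22, 0.45, 0.18, 0.14 and -0.02, and with collagen on Cy3 it read 0.19, -0.02, 0.75, 0.44 and 1.26. The highest array, pair 5 with collagen on Cy3, had 532741 units in collagen and 278427 in control at the middle reading. Replicate 3, the highest of the gene, comes from the dimmer pair 3. There the array with collagen on Cy5 kept 1 of 3 readings, and its collagen channel was listed at 0 at the middle reading. The array with collagen on Cy3 kept 2 readings, with 79100 units in collagen and 47997 in control at the middle reading.

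Srsf9, an SR protein, lay at the other end. It read -0.25, -0.42 and -0.17 in pairs 3 to 5, with a mean of -0.28 (SE 0.10, n = 3, limma adjusted p = 0.642). By array it read 0.08, -0.87 and 0.16 with collagen on Cy5 and -0.59, 0.02 and -0.51 with collagen on Cy3, so 3 of 6 arrays lay below 0. The array at -0.87, of pair 4, kept 1 of 3 readings, and its collagen channel was listed at 0 at the middle reading. Under print-tip loess the mean of Srsf9 was -0.02. The other SR genes lay nearer 0. Srsf1 read 0.04, -0.32 and -0.01 in pairs 3 to 5, with a mean of -0.10 (SE 0.11). Srsf4 and Srsf5, further SR proteins, had means of -0.00 and 0.02, and Srsf10 read -0.02 and 0.11 in replicates 1 and 2 and was not tested.

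The abundant hnRNPs of the core particle differed from each other in sign. Hnrnpa2b1, which binds transported mRNAs in neurons and glia, read 0.22, -0.02 and 0.64 in pairs 3 to 5, with a mean of 0.28 (SE 0.14, n = 3). The mean was 0.10 without replicate 2 and 0.43 without replicate 1. Hnrnpc, which binds uridine tracts, read -0.13, -0.03, -0.46, -0.27 and -0.12 in pairs 1 to 5, below 0 in all 5. Its mean was -0.24 (SE 0.11, n = 3, limma adjusted p = 0.642), with -0.13 under print-tip loess and -0.14 without replicate 3. Its single arrays read -0.04, 0.02, -0.26, -0.57 and -0.10 with collagen on Cy5, and -0.23, -0.08, -0.65, 0.04 and -0.14 with collagen on Cy3. Hnrnpa1, which opposes SR proteins at many exons, read -0.08, 0.09, -0.20, -0.04 and -0.01, with a mean of -0.07 (SE 0.10).

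The remaining hnRNPs had means from -0.10 to 0.12. Hnrnpdl read 0.02, 0.16, 0.23, 0.07 and 0.04 in pairs 1 to 5, above 0 in all 5. Its mean was 0.12 (SE 0.09), with 0.22 under print-tip loess. Its single arrays read -0.20, -0.17, 0.15, 0.08 and -0.09 with collagen on Cy5, and 0.24, 0.50, 0.31, 0.05 and 0.16 with collagen on Cy3. Hnrnpll, known from alternative splicing of Ptprc in lymphocytes, read -0.10, -0.11 and -0.11 in pairs 3 to 5, the smallest spread over replicates of any fitted member, with a mean of -0.10 (SE 0.09). Its arrays did not agree: those of pair 3 read 0.82 with collagen on Cy5 and -1.02 with collagen on Cy3. The mean was -0.19 under print-tip loess and -0.31 with median centring. Hnrnpu, a nuclear matrix RNA-binding protein, read -0.27, 0.05 and -0.01 in replicates 1 to 3. Hnrnpd, which also acts in mRNA decay, had a mean of 0.07, Hnrnph2, which binds runs of G, had -0.09, and Hnrnpl, which binds CA repeats, had 0.01. Ptbp2, the neuronal Ptbp protein, read 0.01, 0.15, 0.16, -0.11 and 0.13 in pairs 1 to 5, with a mean of 0.08 (SE 0.10). Ptbp1, its counterpart outside neurons, read 0.05 and 0.19 in replicates 1 and 2 and was not tested. Probe sequences were not used here, so cross-hybridisation between close relatives such as Hnrnpd and Hnrnpdl was not tested.

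**Figure D3:**
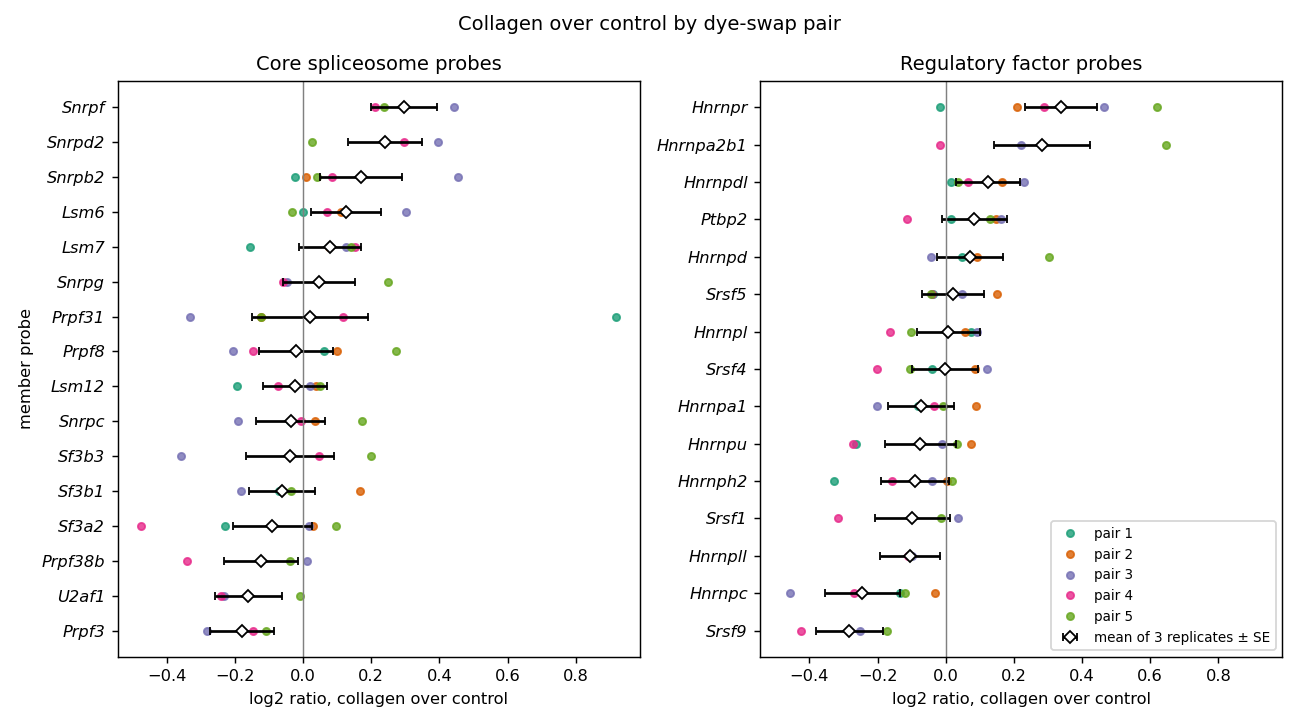
Log2 collagen over control of the 31 fitted members by dye-swap pair (coloured points), with the mean of 3 replicates and limma's SE (diamonds and bars), core genes left and regulatory genes right. Snrpf and Hnrnpr lie highest at 0.30 and 0.34 and Srsf9 lowest at -0.28, and the pairs of most genes fall on both sides of 0.

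The other 19 members had too few replicates for the test: 12 with 2, 6 with 1, and Snrpa1 with none. Apart from those given above they were Lsm1, Lsm3, Lsm11, Lsm14a, Prpf4, Prpf4b, Prpf6, Prpf18, Prpf40b, Sf3a1, Sf3a3, Sf3b6 and Hnrnpa0. Mean ratios of the 18 with a value ran from -0.28 (Lsm11, 1 pair) to 0.27 (Sf3b6, replicate 1 only), and 13 lay above 0, with a median of 0.08. Over all listed probes with a value, 3767 of 7790 means lay above 0, with a median of -0.01. The widest disagreement between replicates was that of Lsm14a, which read 0.57 in replicate 1 and -0.05 in replicate 2.

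The core and the regulatory genes differed by less than the spread between replicates. The median ratio was -0.02 over 16 core genes, 7 above 0, and -0.00 over 15 regulatory genes, 7 above 0, beside 45.5% of all probes above 0. By replicate the core median was -0.03, 0.05 and -0.02, and the regulatory median was -0.06, 0.04 and 0.04. Core minus regulatory was 0.03, 0.01 and -0.05 in replicates 1 to 3, -0.02 for the mean (SD over replicates 0.04), and over the 5 pairs it ran from -0.05 to 0.11. In pairs 3 to 5 alone the core median was -0.01 and the regulatory median -0.06. Within families, the 5 fitted Snrp genes had a median of 0.17 (4 above 0), the 3 Sf3 genes -0.06 (0 above 0), the 4 Prpf genes -0.07, the 3 Lsm genes 0.08, the 10 hnRNP genes -0.03 and the 4 SR genes -0.05. The number of genes in each family was small, and no family was tested.

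The 2 dye orientations gave the core class opposite signs. Over arrays with collagen on Cy5 the core median was 0.13, and over arrays with collagen on Cy3 it was -0.10, each as a median of the genes' means. Single arrays did not all follow: the core median lay above 0 on 4 of 5 arrays with collagen on Cy5 and below 0 on 3 of 5 with collagen on Cy3. The regulatory medians were 0.01 and -0.03. Averaging both arrays of a pair cancels such an offset. Ratios also moved with the printed grid row. Over all probes the median was -0.15 in grid row 1 and 0.08 in grid row 8. The 5 core and 3 regulatory genes in grid rows 1 to 3 had medians of -0.09 and -0.24, and the 11 and 12 in rows 4 to 12 had medians of 0.05 and 0.01. Prpf3 and U2af1 lie in row 1, Hnrnpa1, Hnrnpc and Srsf9 in row 2, Snrpf in row 5, Hnrnpr in row 8 and Snrpd2 in row 10. The part of grid position in single genes was not tested beyond the print-tip values above.

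**Figure D4:**
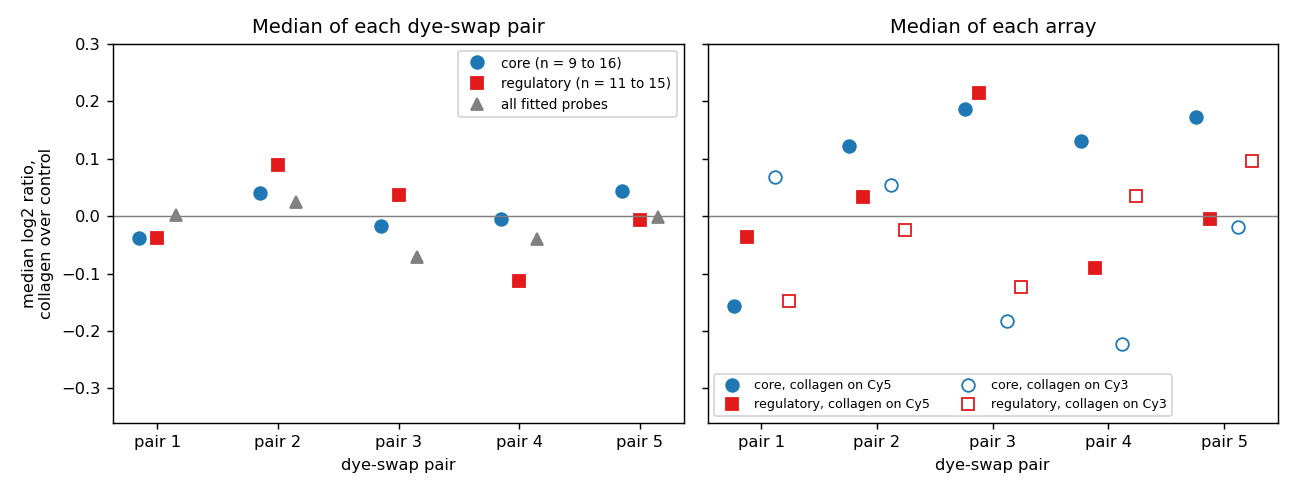
Median log2 collagen over control of core, regulatory and all fitted probes in each dye-swap pair (left) and of core and regulatory probes on each array (right, filled with collagen on Cy5 and open with collagen on Cy3). By pair, core medians lie between -0.04 and 0.04 and regulatory medians between -0.11 and 0.09, with no class on one side of 0 in all 5 pairs.

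Other splicing genes, listed from textbook knowledge of the spliceosome and its regulators, also gave no called gene. Of 58 genes fitted (59 probes), none passed the adjusted threshold in either direction in limma, with 28 probes above 0, 31 below and a median of -0.02. At an unadjusted p under 0.05 there were 2 probes, both below 0 (3.39% of the list's probes, beside 6.5% of all). The smallest p was that of Snrnp70, the U1 protein that binds U1 snRNA, at -0.63, -0.13 and -0.71 in replicates 1 to 3 (mean -0.49, SE 0.14, adjusted p = 0.642). Dhx9, an RNA helicase, followed at -0.33 (SE 0.10, adjusted p = 0.642). Among the cell type lists, 9 of 11 neuronal markers lay below 0, with a median of -0.12 and a range of -0.37 to 0.04, beside 45.5% of all probes above 0. Some of these markers lie in grid rows with low medians over all probes, such as Nefl and Syt1 in row 1 (-0.15). The part of grid position in the marker ratios was not tested. Of the microglia and macrophage markers 3 of 4 lay below 0 (median -0.14), as did both choroid plexus and ependyma markers (median -0.15). The 2 oligodendrocyte markers differed in sign, with Mal at 0.35 (limma adjusted p = 0.642) and the other at -0.08. The part of cell content in the members' ratios was not tested.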

How the data were processed

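Prefrontal cortex RNA was hybridised to 2-colour in-house arrays, 10 in number, each deposited as 3 readings. Per the file headers, each reading holds a background-subtracted spot intensity for channels A and B, with a flag. The authors' deposited table holds a score by spot and array, whose log base was not settled. Scores are missing for many spots, and 2939 probes had a value in every replicate. The sources used here name neither scanner, image software nor normalisation. The table's values correlated at 0.725 to 0.909 with print-tip loess ratios turned to collagen over control.

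Spots flagged B, C or S with intensity above 0 in both channels were kept. Log2 ratios were normalised per reading by limma's global loess (span 0.3), averaged over readings, arrays of a pair and pairs of a number, and fitted with an intercept in limma 3.58.1 under R 4.3.3 with statmod 1.5.0 (lmFit and eBayes, two-sided). P-values were adjusted by Benjamini-Hochberg over 4125 probes. SE is limma's moderated standard error. The 3 replicates and 5 pairs limit the precision. The fit was tested on simulated data of independent values, which had no grid trend and no missing arrays. Those features were therefore not covered.

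The members and lists were chosen with earlier results of these data known. Genes given in full were, in each class, up to 6 fitted genes with the smallest p and the same sign in all replicates, well-known factors, and members called in the dye effect. All 50 members had an Entrez ID in the RefSeq gene table. Alternatives covered normalisation, background, the authors' values, readings, pairs and replicates. Unlisted spots were left out.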

Additional observations from a re-analysis of the deposited data

Results flagged for a closer look

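Snrpb2, which encodes the U2-B'' protein, read 0.45 in pair 3 (log2 collagen over control, mean of both arrays), and its nearest other pair, pair 4, read 0.09. Pair 3 therefore stood farther from the other 4 pairs than Dixon's critical value allows: the gap was 0.773 of the whole range, against a critical value of 0.71. Of 14 values tested in this way it was the only one, and chance marks about 1 in 20.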

How the results depend on the processing

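No member passed the adjusted threshold under any alternative run. Against 3 of 31 members at unadjusted p under 0.05, there were 0 of 31 with median centring and 1 of 25 with the authors' values. Probes measured on all 10 arrays gave 1 of 19, and pairs 1 to 3 alone gave 0 of 20. The middle reading alone gave 1 of 21, and leaving out 1 replicate gave 0 to 2. Snrpf and Srsf9 were not fitted in the settings just listed with fewer than 31 members. Hnrnpr was not fitted with the authors' values or the middle reading, so these counts do not cover the same genes. Where the count stayed at 3 the genes could differ: the replicate block gave Hnrnpc, Hnrnpr and Hnrnpa2b1, and print-tip loess gave none of Hnrnpr, Snrpf and Srsf9. The core median was 0.0252 with median centring, 0.0426 with each of 5 pairs as a replicate, and -0.0809 to 0.0391 without one replicate. The regulatory median was 0.0533 in pairs 1 to 3 alone and -0.0602 in pairs 3 to 5 alone, an alternative chosen after seeing the data. Core minus regulatory was 0.0407 with print-tip loess, 0.0397 with median centring, 0.0350 with normexp, -0.0678 in pairs 1 to 3, 0.0523 in pairs 3 to 5, 0.0514 with each of 5 pairs as a replicate, and -0.0804 to 0.0479 without one replicate. It was 0.0451 in the fit with the replicate number as a block over 10 arrays and 0.0356 with the block and a dye term. Arrays sharing a number had a consensus correlation of -0.16, and of -0.06 with a dye term. A number also joins the dye-swap partners of a pair, so this value cannot show whether pairs of the same number share material. The averaging by number rests on the titles alone. The count of probes with a dye effect was 21 with median centring and 41 with normexp, against 74, and Prpf31 read -1.05 (adjusted p = 0.0542) with median centring.

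Signs reversed for Prpf3 (0.0294), Sf3b1 (0.0132), Snrpf (-0.0173) and U2af1 (0.0475) with print-tip loess; for Prpf8 (0.0307) and Hnrnpu (0.0833) with median centring; and for Lsm6 (-0.0142) and U2af1 (0.00236) with the authors' values. They also reversed for Prpf8 with each of 5 pairs as a replicate (0.0166), the middle reading (0.00815), the replicate block (0.0345) and the block with a dye term (0.0222), for Sf3b1 with the block (0.0114), and for Prpf31 in pairs 3 to 5 (-0.11). Without one replicate, Prpf31 ran from -0.23 to 0.20, Hnrnpu from -0.139 to 0.0215, Srsf1 from -0.165 to 0.0121 and Prpf8 from -0.123 to 0.0718. The cause was not tested. Of the named genes, 15 of 19 kept their sign with print-tip loess and 19 of 19 with normexp.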
